A study of Drosophila melanogaster with 12 samples.

Results

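Tetraspanins are small proteins that cross the membrane repeatedly, bind one another and partner proteins such as integrins and ADAM metalloproteases, and sort these partners on the cell surface and in endosomes. In Drosophila a large share of the family lies in one gene cluster, Tsp42E, and the rest are scattered over the genome. The fat body, in which they were measured here, is the larval organ that does the work of liver and adipose tissue. The genes were chosen by symbol (Tsp followed by a digit), with earlier results of these data known. Such a symbol was held by 34 of the 17139 genes in the deposited table. Of these, 17 were Tsp42E genes and 17 lay elsewhere, with 68 transcripts in all.

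The study compared fat bodies of Drosophila melanogaster larvae 96 hours after egg laying. The group called TFAM RNAi here carried r4-Gal4 and, driven by it, an RNAi construct that targets TFAM, the factor that packages and transcribes mitochondrial DNA, and had 6 libraries (replicates 3 to 8). The control group was r4-Gal4 with wild type, without the RNAi construct, and also had 6 libraries (replicates 2, 3, 5, 6, 7 and 8). Both groups thus carried the r4-Gal4 driver, which acts mainly in the fat body, so the knockdown is not one of the whole larva. Whether replicates were separate animals or cultures is not in the labels, and p-values therefore reflect only how far these libraries scatter, part of which may be technical.

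Levels are in TPM (transcript abundance), which are scaled by transcript length and within each library, and were summed over the transcripts of each gene. TPM values do not retain sequencing depth, which is thus unknown. Folds set TFAM RNAi over control as log2(TPM + 1), a scale that makes changes of low genes look smaller. A gene "rose" or "fell" where limma gave a Benjamini-Hochberg adjusted p under 0.05 over all 9951 genes that averaged 1 TPM or more. TFAM itself averaged 24.2 ± 1.92 TPM in TFAM RNAi and 91.9 ± 8.21 TPM in controls (SD, n = 6 each), and its groups did not overlap. Of 9 fat body markers, 7 averaged at least 1 TPM, and all 9 summed to between 60456 and 106933 TPM in TFAM RNAi and between 37351 and 97491 TPM in controls, with overlap; Fbp1 and Yp1 averaged under 1 TPM. Within this list Fbp2 and Lsp1alpha, a storage protein gene, rose, with every TFAM RNAi library above every control. Fbp2 averaged 2089 ± 1119 TPM in TFAM RNAi and 142 ± 118 TPM in controls, and Lsp1alpha averaged 9791 ± 3885 TPM in TFAM RNAi and 309 ± 263 TPM in controls (limma adjusted p = 2.8e-04 and 5.3e-06). The other 5 tested fat body markers did not pass. Some libraries also held markers of other tissues, and these values stand beside the results they touch.

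Tetraspanin RNA was lower in TFAM RNAi fat bodies, and most of the difference in TPM lay in a single gene, Tsp42Eg. All 34 genes together summed to 672 ± 54.2 TPM in TFAM RNAi and 1654 ± 164 TPM in controls (SD, n = 6 each), and the groups did not overlap. Of the 28 tetraspanin genes that averaged 1 TPM or more, 7 fell and 1 rose, where 13.8% of all tested genes fell and 5.75% rose (19.6% in either direction). In 6 of the 28 every TFAM RNAi library lay below every control, and in 1 every TFAM RNAi library lay above, where the shares over all tested genes were 9.76% and 3.56%. The median log2 fold change was -0.17 over the 28 tetraspanin genes and 0.01 over all tested genes. In RNA from whole dissected fat bodies, fewer cells of a type and less RNA per cell cannot be told apart.

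The Tsp42E cluster and the other tetraspanin genes gave different counts. Of the 14 tested cluster genes 6 fell and 1 rose, with a median log2 fold change of -0.35. Of the 14 tested genes outside the cluster 1 fell and none rose, with a median of 0.05. With limma at an unadjusted p under 0.05, 2 of those outside the cluster were lower and 0 were higher, and the exact rank-sum test with adjustment called 1 lower and 0 higher. The difference between the 2 lists was not itself tested.

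The summed level separated in the same way. The cluster summed to 524 ± 38.3 TPM in TFAM RNAi (lowest 468, highest 581) and 1476 ± 127 TPM in controls (lowest 1286, highest 1630; SD, n = 6 each), without overlap. Without Tsp42Eg, the remaining cluster genes summed to 219 ± 18.5 TPM in TFAM RNAi and 350 ± 78.3 TPM in controls, again without overlap. The 17 genes outside the cluster summed to 149 ± 26.0 TPM in TFAM RNAi and 178 ± 56.1 TPM in controls, and there the groups overlapped, with control replicate 3 the highest library at 287 TPM. Tsp42Eg made up 45.4% ± 2.26 of tetraspanin TPM in TFAM RNAi and 68.4% ± 4.97 in controls. The plot of summed TPM by library shows these shares.

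**Figure D1:**
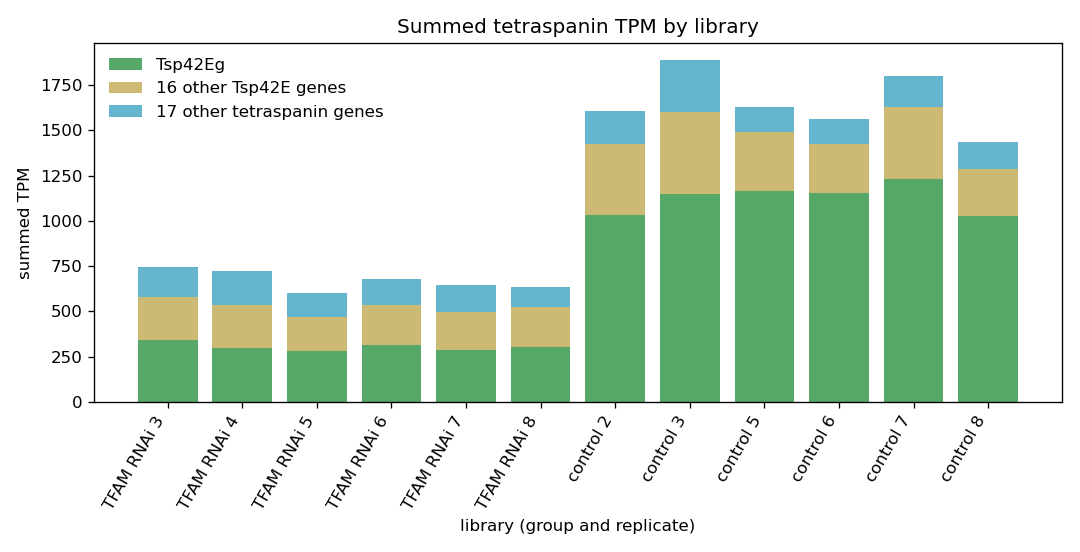
Summed TPM of the tetraspanin genes (y axis) in each of the 6 TFAM RNAi and 6 control libraries (x axis), stacked as Tsp42Eg, the other Tsp42E genes and the genes outside the cluster. The TFAM RNAi bars end between 603 and 746 TPM and the control bars between 1434 and 1887 TPM; the Tsp42Eg segment is the part that differs most in height.

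Tsp42Eg was the most abundant tetraspanin in both groups. It had 280.4, 302 and 344 TPM as lowest, median and highest library in TFAM RNAi, against 1029, 1152 and 1229 TPM in controls. The highest TFAM RNAi library was thus far below the lowest control, and both groups were tight. Its mean was 305 ± 22.3 TPM in TFAM RNAi and 1126 ± 79.8 TPM in controls (SD, n = 6 each), a log2 fold change of -1.88 (SE 0.063, limma adjusted p = 1.6e-09). Ranked by mean TPM among all genes, Tsp42Eg stood at place 426 in TFAM RNAi and at place 161 in controls.

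Tsp42Eh and Tsp42Ei, which follow Tsp42Eg directly in the cluster, had the largest folds of the family. Tsp42Eh had 0.624, 1.16 and 1.57 TPM as lowest, median and highest library in TFAM RNAi, against 31.2, 52.8 and 69.9 TPM in controls. Every TFAM RNAi library was close to 1 TPM, the limit for testing a gene by its mean, and no control was near it. The log2 fold change of Tsp42Eh was -4.62 (SE 0.21, limma adjusted p = 1.0e-08). Tsp42Ei had 1.18, 1.69 and 2.31 TPM in TFAM RNAi, against 10.4, 15.4 and 16.4 TPM in controls, again without overlap. Its log2 fold change was -2.48 (SE 0.15, limma adjusted p = 1.1e-07).

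Tsp42Ef and Tsp42Ee, which precede this trio, had smaller folds. Tsp42Ef had 20.9, 22.2 and 24.1 TPM as lowest, median and highest library in TFAM RNAi, against 33.1, 46.8 and 53.8 TPM in controls, without overlap. The TFAM RNAi libraries of Tsp42Ef lay closer together than the controls, with an SD of 1.12 TPM in TFAM RNAi and 8.27 TPM in controls. Its log2 fold change was -0.98 (SE 0.11, limma adjusted p = 4.2e-05). Tsp42Ee had 45.5, 55.2 and 67.5 TPM in TFAM RNAi, against 60.8, 80.2 and 106 TPM in controls. Its groups overlapped, and the log2 fold change was -0.53 (SE 0.15, limma adjusted p = 0.021).

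Further along the cluster, Tsp42Ek and Tsp42El moved in opposite directions although they are neighbours. Tsp42Ek had 16.8, 28.0 and 41.8 TPM as lowest, median and highest library in TFAM RNAi, against 3.89, 6.52 and 9.85 TPM in controls. It was the tetraspanin gene that rose, with every TFAM RNAi library above every control and a log2 fold change of 1.92 (SE 0.24, limma adjusted p = 6.9e-05). Tsp42El had 23.3, 30.7 and 39.2 TPM in TFAM RNAi, against 41.9, 59.9 and 77.6 TPM in controls. Its groups did not overlap, and the log2 fold change was -0.95 (SE 0.16, limma adjusted p = 7.1e-04). Exons of Tsp42Ek and of Tsp42Ej, the gene before it, overlap on the same strand in the annotation, so the split of reads between them is uncertain. An exon of Tsp42Ei overlaps CG33914 on the other strand, and CG33914 averaged 0.140 TPM in TFAM RNAi and 0.226 TPM in controls. Exons of Tsp42Ea overlap CG30159 and those of Tsp66A overlap CG42661 and CG42660 on the same strand, and exons of Tsp42Ep overlap Tsp42Eo on the other. The library kit kept the strand, but whether the quantification used it is not given in the sources used here.

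**Figure D2:**
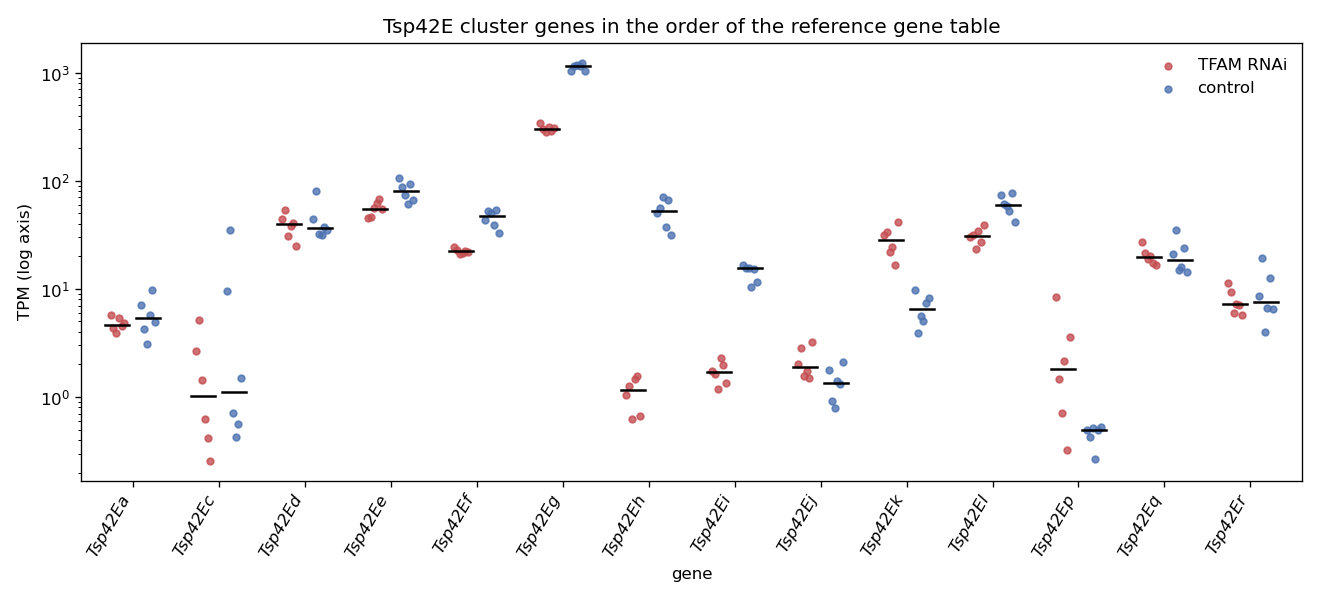
TPM on a log axis (y) of the 14 tested Tsp42E genes (x, in the order of the reference gene table); each point is 1 library, TFAM RNAi in red left of control in blue, and the bar is the group median. Tsp42Ef, Tsp42Eg, Tsp42Eh, Tsp42Ei and Tsp42El show every red point below every blue one, and Tsp42Ek the reverse.

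The other 7 tested cluster genes did not pass the test. Tsp42Ed averaged 38.8 ± 10.1 TPM in TFAM RNAi and 43.1 ± 18.4 TPM in controls, with a log2 fold change of -0.11. Tsp42Eq averaged 20.3 ± 3.80 TPM in TFAM RNAi and 20.8 ± 7.81 TPM in controls, with a log2 fold change of 0.02. Tsp42Ea and Tsp42Er had log2 fold changes of -0.18 and -0.15. Their groups all overlapped. Tsp42Ej, also called sunglasses and known from photoreceptors, where it takes part in the lysosomal breakdown of rhodopsin, had 1.49, 1.88 and 3.24 TPM as lowest, median and highest library in TFAM RNAi, against 0.784, 1.35 and 2.12 TPM in controls. The log2 fold change of Tsp42Ej was 0.40 (SE 0.19, limma adjusted p = 0.19).

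Tsp42Ec varied widely within both groups, and Tsp42Ep within TFAM RNAi. Tsp42Ec had 0.256, 1.03 and 5.13 TPM in TFAM RNAi, against 0.428, 1.11 and 35.2 TPM in controls, with a log2 fold change of -0.76 and an SE of 0.78. The medians were close together, and control replicate 3 alone held the highest level. Tsp42Ep had 0.326, 1.81 and 8.49 TPM in TFAM RNAi, against 0.268, 0.491 and 0.523 TPM in controls. Its log2 fold change of 1.06 (SE 0.39) did not pass (limma adjusted p = 0.085), and without TFAM RNAi replicate 7, its lowest library in that group, it passed (log2 fold change 1.30, adjusted p = 0.027). Tsp42Eb, Tsp42En and Tsp42Eo averaged under 1 TPM and were not tested. Both Tsp42Ep and Tsp42Eb were highest in TFAM RNAi replicate 3, at 8.49 and 1.20 TPM. That library also held 1108 TPM of summed salivary gland markers, against 23.4 TPM in TFAM RNAi replicate 4, the next highest library. The part of salivary gland RNA in the levels of Tsp42Ep and Tsp42Eb was not tested.

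Of the 6 cluster genes that fell, 4 are direct neighbours. In the gene order of the RefSeq table (Release 6 plus ISO1 MT), Tsp42Ef, Tsp42Eg, Tsp42Eh and Tsp42Ei hold places 12 to 15 and have no other gene between them. Tsp42Ee lies before them with CG43646, CG43647 and CR44172 between, and Tsp42Ej, Tsp42Ek and Tsp42El come after. Between the first and the last Tsp42E gene lie 10 genes without a Tsp symbol, of which 8 are in the deposited table and 4 were tested. None of these 4 (CG30159, CG30160, lbm and Pgant3) passed with limma, 1 was higher and 1 lower at an unadjusted p under 0.05, and the exact rank-sum test with adjustment called 0. lbm, or late bloomer, is a tetraspanin of motor neurons that takes part in synapse formation, and is also listed as Tsp42Em. It had 1.26, 1.63 and 2.27 TPM in TFAM RNAi, against 0.694, 0.872 and 1.63 TPM in controls, with a log2 fold change of 0.45 (SE 0.15, limma adjusted p = 0.057), and it passed without control replicate 2.

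**Figure D3:**
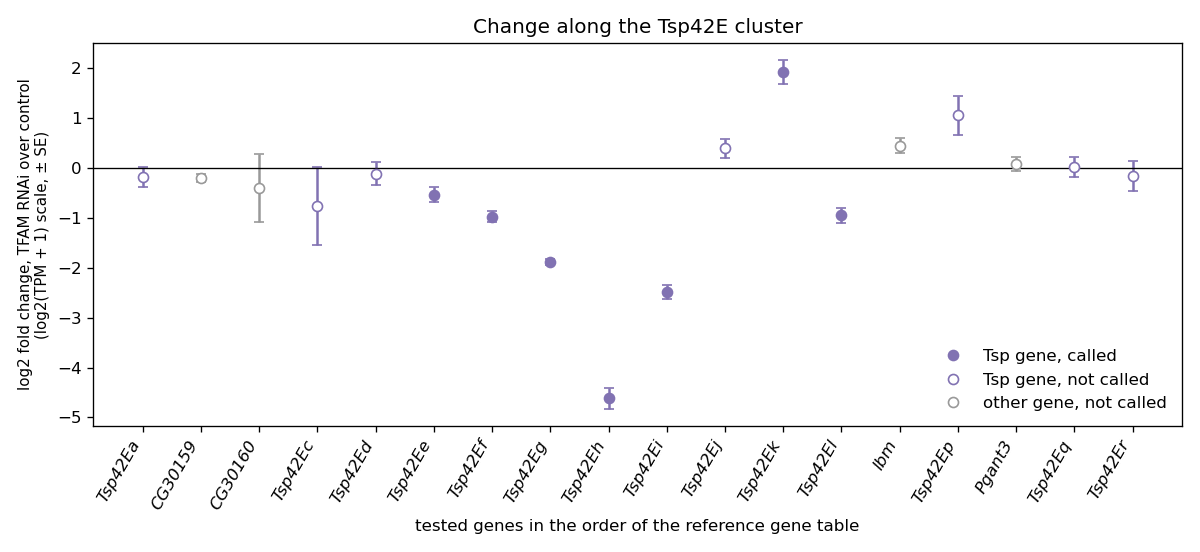
Log2 fold change of TFAM RNAi over control, computed from log2(TPM + 1) (y, with SE bars from limma) for tested genes in the order of the reference gene table (x); filled points passed the test. Tsp42Ee to Tsp42Ei lie below 0 with the lowest value at Tsp42Eh (-4.62), Tsp42Ek lies above 0 (1.92) and Tsp42El below (-0.95).

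Where a called cluster gene had several transcripts, their shares of the gene's TPM were compared. Tsp42Ei had 2 transcripts, and its major one held 60.8% of the gene's TPM in the median TFAM RNAi library and 79.8% in the median control, with overlapping ranges of 52.5% to 76.9% and 66.2% to 85.0%. Tsp42Ek also had 2, and its minor one held 17.2% in the median TFAM RNAi library and 11.8% in the median control. Its share ran from 13.8% to 20.6% in TFAM RNAi and from 5.29% to 19.2% in controls, with overlap. The genes Tsp42Ef, Tsp42Eg, Tsp42Eh and Tsp42El were listed with 1 transcript each, and Tsp42Ee with 2, of which 1 held 100% of its TPM in all 12 libraries to within rounding. Tsp42Ea, which did not pass the test as a gene, was assigned at 99.3% to 99.6% to the same transcript in every TFAM RNAi library, while in controls the share of that transcript ran between under 0.001% and 99.6%. The cause of these jumps was not tested.

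In the authors' deposited table of Wald tests per transcript, 51 of the 68 tetraspanin transcripts had a q-value and 7 had one under 0.05, where 9.22% of all 21722 transcripts with a q-value did. In the authors' deposited table these 7 belonged to 6 genes, all in the cluster: Tsp42Ef, Tsp42Eg, Tsp42Eh, Tsp42Ei and Tsp42El with coefficients below 0, and both transcripts of Tsp42Ek with coefficients above 0. On the natural log scale of the authors' deposited table, the coefficient was -1.30 for Tsp42Eg, -3.85 for Tsp42Eh, and 1.84 and 1.38 for the Tsp42Ek transcripts. The abundant Tsp42Ee transcript had q = 0.0897 in the authors' deposited table, and the 2 Tsp3A transcripts had q = 0.42 and q = 0.555, so neither gene passed there.

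Outside the cluster the called gene was Tsp3A. Tsp3A, Tsp26A and Tsp86D belong to the group of tetraspanins that carry the ADAM protease Kuzbanian to the cell surface and so promote Notch signalling. Tsp3A had 7.44, 8.40 and 9.10 TPM as lowest, median and highest library in TFAM RNAi, against 9.49, 10.8 and 11.9 TPM in controls. Its groups did not overlap but lay close together, and the log2 fold change was -0.32 (SE 0.092, limma adjusted p = 0.026). Tsp86D averaged 6.15 ± 0.209 TPM in TFAM RNAi and 5.89 ± 0.468 TPM in controls, with a log2 fold change of 0.06 (SE 0.084) and overlapping groups. Tsp26A averaged 1.97 ± 0.916 TPM in TFAM RNAi and 1.61 ± 0.622 TPM in controls, with a log2 fold change of 0.16 (SE 0.24). Of 10 tested genes of the ADAM and Notch list, which includes kuz, Psn and Su(H), none passed with limma, and at an unadjusted p under 0.05 or by the exact rank-sum test the count was also 0.

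The calls of Tsp3A and Tsp42Ee depended on single libraries and on the scaling. Tsp3A no longer passed without TFAM RNAi replicate 4 or 6, or without control replicate 3, 5 or 7 (adjusted p between 0.059 and 0.068), and Tsp42Ee no longer passed without TFAM RNAi replicate 4 or control replicate 7 (adjusted p = 0.053 each). Without the 2 libraries of each group richest in midgut markers, the log2 fold change was -0.29 for Tsp3A (SE 0.14, adjusted p = 0.24), close to its value in all 12 libraries, and -0.38 for Tsp42Ee (SE 0.16, adjusted p = 0.20), with 8 libraries in the fit. Under quantile normalization adjusted p was 0.15 for Tsp3A and 0.095 for Tsp42Ee, under median-ratio scaling it was 0.07 for Tsp3A, and by the exact rank-sum test it was 0.071 for Tsp42Ee. The calls and signs of Tsp42Ef, Tsp42Eg, Tsp42Eh, Tsp42Ei, Tsp42Ek and Tsp42El held in all 26 alternative fits.

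Tsp2A, Tsp29Fa and Tsp29Fb, among the more abundant genes outside the cluster, each had 1 outlying control. Tsp2A is a protein of the smooth septate junction, the barrier of the midgut and Malpighian tubule epithelium. It had 7.07, 10.0 and 18.7 TPM in TFAM RNAi, against 12.8, 18.9 and 43.2 TPM in controls, with a log2 fold change of -0.83 (SE 0.31) that did not pass (limma adjusted p = 0.087), and passed without TFAM RNAi replicate 3 (log2 fold change -0.97, adjusted p = 0.042) and with array weights (-1.01, adjusted p = 0.0036). Its partners of the same junction, Ssk, mesh and hoka, did not pass in limma, at an unadjusted p under 0.05 or by the exact rank-sum test (0 of 3). Tsp29Fb averaged 64.6 ± 19.3 TPM in TFAM RNAi and 76.9 ± 32.0 TPM in controls, with a log2 fold change of -0.22 (SE 0.25). Tsp29Fa averaged 20.3 ± 8.04 TPM in TFAM RNAi and 28.1 ± 16.1 TPM in controls, with a log2 fold change of -0.40 (SE 0.31). For all 3, the groups overlapped and control replicate 3 was the highest of the 12 libraries.

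Control replicate 3 was also the richest in midgut markers. The 11 midgut genes summed to 276 TPM in the lowest and 3900 TPM in the highest TFAM RNAi library, and to 591 and 5654 TPM in the lowest and highest control, with replicate 4 the highest in TFAM RNAi and replicate 3 in controls. Of the 28 tested tetraspanin genes, 8 had their highest control level in replicate 3, and none of these 8 was called. The matching share over all tested genes was not computed, so this count is no result about tetraspanin genes. The part of midgut RNA in the levels of these genes was not tested. The plot of midgut markers beside 5 tetraspanin genes, picked after their outlying values were seen, shows the libraries side by side.

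**Figure D4:**
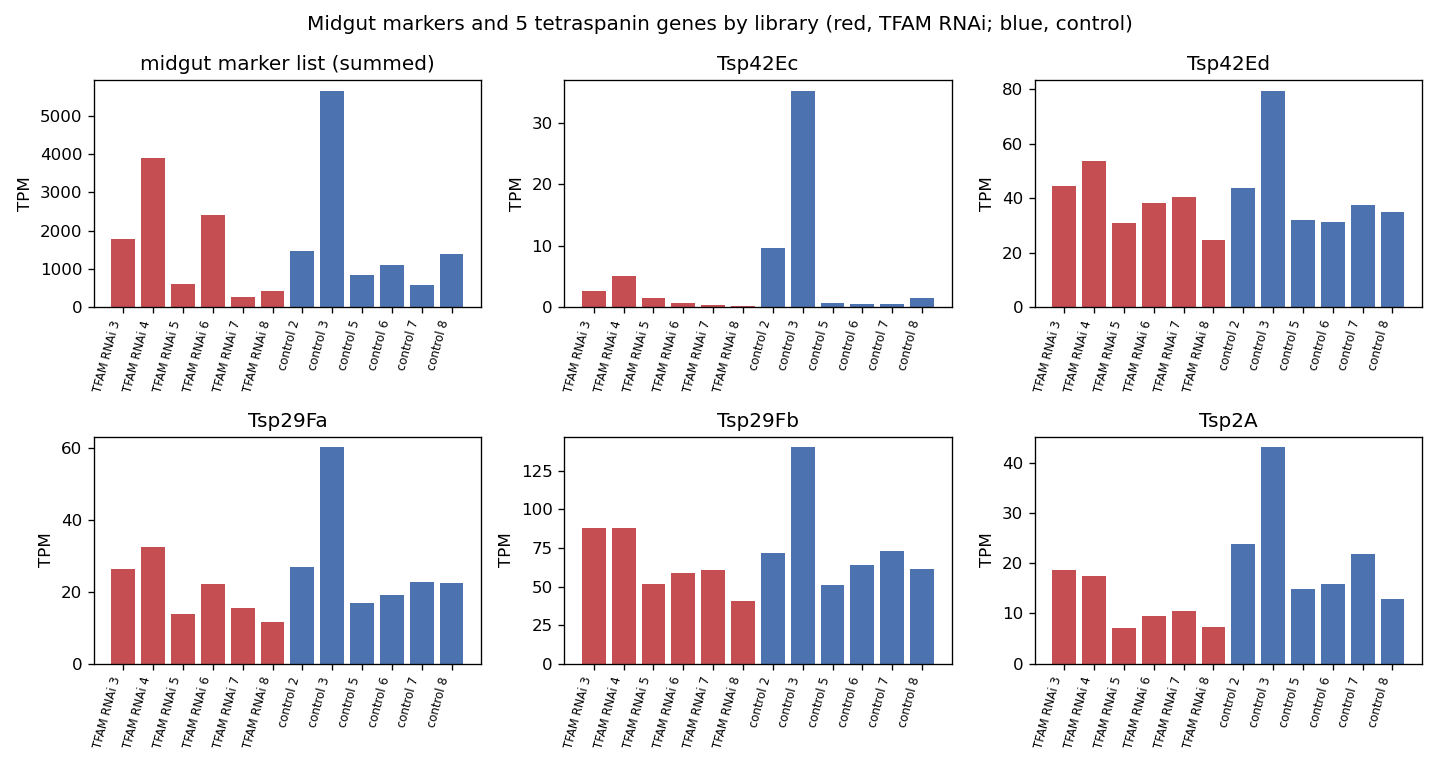
TPM (y axes, linear) in each library (x axes) of the summed midgut marker list and of Tsp42Ec, Tsp42Ed, Tsp29Fa, Tsp29Fb and Tsp2A, with TFAM RNAi in red and control in blue. Control replicate 3 is the highest of the 12 bars in each panel, at 5654 TPM for the marker list and 35.2 TPM for Tsp42Ec.

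The remaining 8 tested genes outside the cluster did not pass the test. Tsp97E averaged 17.8 ± 5.15 TPM in TFAM RNAi and 16.1 ± 2.30 TPM in controls (log2 fold change 0.08, SE 0.21). Tsp96F averaged 5.06 ± 1.91 TPM in TFAM RNAi and 4.13 ± 1.30 TPM in controls (log2 fold change 0.20, SE 0.27). Tsp39D averaged 4.06 ± 0.876 TPM in TFAM RNAi and 3.85 ± 0.572 TPM in controls (log2 fold change 0.05, SE 0.14). The other 5 averaged between 0.880 and 2.91 TPM in either group. Among them the log2 fold change was 0.43 for Tsp33B, 0.39 for Tsp42A, 0.20 for Tsp66A, -0.23 for Tsp66E and -0.38 for Tsp74F, each with overlapping groups and limma adjusted p between 0.44 and 0.68. Tsp42A lies outside the Tsp42E list by its symbol. Tsp47F, Tsp68C and Tsp5D averaged under 1 TPM and were not tested. Of 2 further tetraspanin genes that RefSeq lists under other symbols, CG31600 (Tsp40A) had a log2 fold change of 0.40 and did not pass, and TM4SF (Tsp60A) was not tested. The highest level of any of the 6 untested tetraspanin genes was 1.20 TPM, for Tsp42Eb in TFAM RNAi replicate 3.

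**Figure D5:**
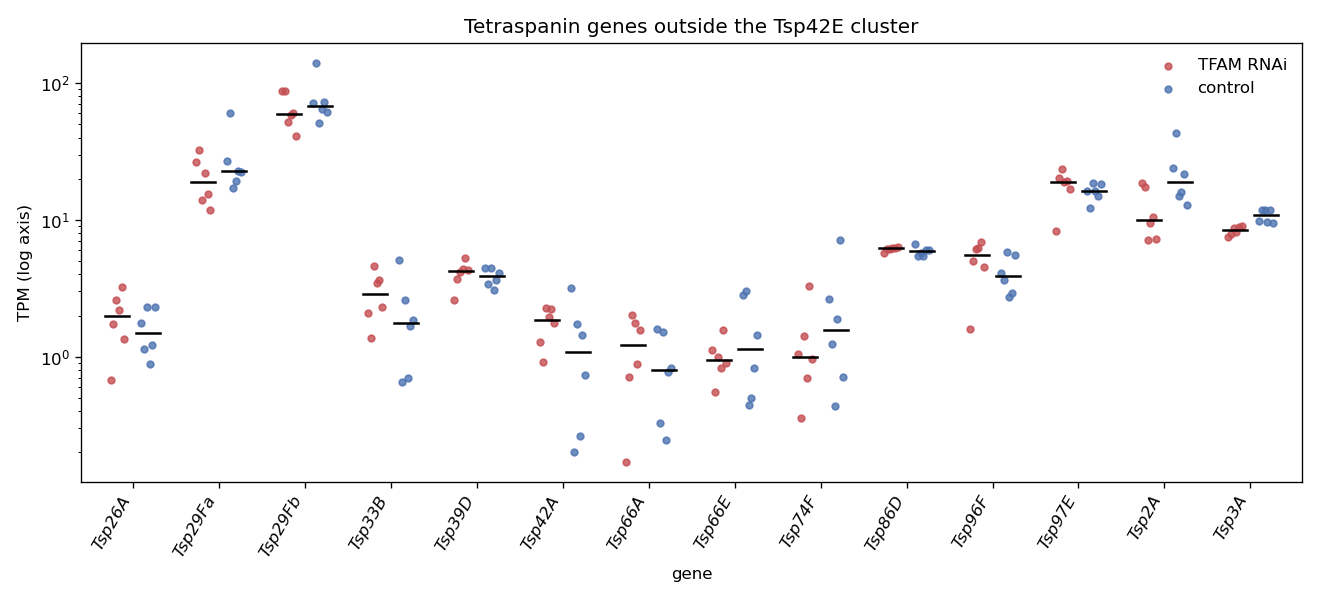
TPM on a log axis (y) of the 14 tested tetraspanin genes outside the Tsp42E cluster (x); each point is 1 library, TFAM RNAi in red left of control in blue, and the bar is the group median. The groups separate in Tsp3A, at 7.44 to 9.10 TPM against 9.49 to 11.9 TPM, and overlap in the other 13.

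Genes of compartments in which tetraspanins act were counted in the same fit, in which 13.8% of all tested genes fell and 5.75% rose. In the lysosome list 3 of 6 fell and none rose, and all 3 are proteases of the lysosome. CtsL1 averaged 151 ± 16.8 TPM in TFAM RNAi and 709 ± 97.4 TPM in controls (log2 fold change -2.22, limma adjusted p = 1.2e-08), cathD had a log2 fold change of -0.53 and CtsB of -0.44. Lamp1, a lysosome membrane protein, averaged 149.8 ± 16.3 TPM in TFAM RNAi and 150.5 ± 14.3 TPM in controls. Of 13 genes of the ESCRT machinery, which sorts membrane proteins into multivesicular bodies, 4 fell and none rose, led by Vps24 (-0.53), Vps2 (-0.51) and Vps28 (-0.57), with a median log2 fold change of -0.30 over the 13. Of 5 Rab genes 1 fell (Rab7, -0.42, limma adjusted p = 0.041), and 0 fell without TFAM RNAi replicate 4, 6 or 8 or without control replicate 2, 3, 5 or 7. Of 7 integrin and adaptor genes 1 rose, the integrin alpha subunit gene if (0.52, limma adjusted p = 0.033), and 1 fell, the integrin-linked kinase gene Ilk (-0.37, limma adjusted p = 0.0053). The count that rose was 0 without TFAM RNAi replicate 4, 5, 6, 7 or 8 or without control replicate 3, 5 or 6, and the count that fell was 0 under median-ratio scaling and quantile normalization. Of 6 septate junction scaffold genes none passed with limma, 2 were higher at an unadjusted p under 0.05, and the exact rank-sum test called 0, while without TFAM RNAi replicate 3 or without control replicate 8 limma called 2 higher. Without the 2 libraries of each group richest in midgut markers, 0 ESCRT genes, 1 lysosome gene and no Rab or integrin gene passed as lower. Together the lists gave 1 that rose and 9 that fell of 51 tested, which is near the shares over all tested genes (5.75% and 13.8%) and is no result about these lists.

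Summed markers of 3 other tissues lay lower in every TFAM RNAi library than in every control, each through 1 gene. The 6 hemocyte markers summed to between 12.6 and 32.1 TPM in TFAM RNAi and between 80.2 and 257 TPM in controls, where Pxn fell and Hml, at 1.25 to 4.55 TPM in TFAM RNAi and 1.01 to 4.57 TPM in controls, did not pass. The 4 Malpighian tubule markers summed to between 341.7 and 639 TPM in TFAM RNAi and between 686 and 1076 TPM in controls, where Uro fell and Irk3, Best2 and Dh44-R2 did not pass. The 4 prothoracic gland markers summed to between 0.199 and 5.44 TPM in TFAM RNAi and between 42.02 and 74.2 TPM in controls. Of these, sad fell, while dib did not exceed 0.152 TPM and nvd 0.589 TPM in any library. The remaining marker, spok, reached 3.17 TPM in TFAM RNAi and 4.13 TPM in controls, with overlap, and was not tested. Sums of the midgut, salivary gland, muscle, cuticle, neuron and testis lists overlapped between groups, although single members passed the test: betaTry of the midgut list (log2 fold change 3.56, limma adjusted p = 0.0050) and Syt1 of the neuron list (0.28, limma adjusted p = 0.044) rose, and Cpr49Aa of the cuticle list (-1.53, limma adjusted p = 0.0048) fell. No marker of these lists was at 0 in all 12 libraries. The part of hemocytes, Malpighian tubule and prothoracic gland in the tetraspanin changes was not tested. The fit without the libraries richest in midgut, salivary gland, muscle or cuticle markers left out none by these 3 lists and cannot address them. In that fit Tsp42Ef, Tsp42Eg, Tsp42Eh, Tsp42Ei, Tsp42Ek and Tsp42El passed. Tsp42Ee (limma adjusted p = 0.13) and Tsp3A (limma adjusted p = 0.083) did not.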

How the data were processed

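Per the labels, total RNA of dissected larval fat bodies was made into directional libraries. The authors deposited TPM per RefSeq transcript for 12 libraries, each summing to 1000000, and p-values and q-values of Wald tests, with coefficients that, judged from the deposited values, are natural logs (slope of 0.999 against differences in mean natural-log TPM). The submitters' processing notes name sleuth; quantifier, settings and genome build are not given in the sources used here, so no coordinates or sequences are printed.

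Transcripts were joined to genes by RefSeq accession (34092 of 34213) and TPM were summed per gene. Genes averaging 1 TPM or more were tested on log2(TPM + 1) with limma 3.58.1 in R 4.3.3 (lmFit, eBayes with trend, two-sided). Benjamini-Hochberg adjustment was over 9951 genes. A check of the fit on simulated data drew noise independently per gene and library, so it held no shifts shared by a whole library. The threshold for a call was an adjusted p of 0.05. SEs are limma's. Members and gene lists were chosen with earlier results of these data known. Every tested member is named; from each context list, up to 3 called genes with the smallest adjusted p are named. Dl and Vps37A are not used here. The 26 alternative fits changed the pseudocount, the filter, the scaling, the test, the pairing or the libraries. TPM keeps no depth, so no counting intervals are given; 8684 to 10325 genes reached 1 TPM per library.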

Additional observations from a re-analysis of the deposited data

Results flagged for a closer look

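Within 9 of 56 groups of 6 libraries, 1 library of a tested tetraspanin gene stood apart from the other 5 by Dixon's criterion. Chance gives about 1 in 20 only for independent groups of normally distributed values, which TPM need not be. The share over all tested genes was not computed, so the 9 are no result about tetraspanin genes. In 5 of the 9 that library was control replicate 3, which held 35.2 TPM of Tsp42Ec (next highest control 9.56), 79.5 TPM of Tsp42Ed (43.8), 60.3 TPM of Tsp29Fa (27.0), 140.3 TPM of Tsp29Fb (73.2) and 43.2 TPM of Tsp2A (23.9). The same library had the highest sum of midgut markers, and the part of midgut RNA in these levels was not tested.

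Tsp74F was high in replicate 7 of both groups, at 3.29 TPM in TFAM RNAi (next highest 1.43) and 7.08 TPM in controls (next highest 2.62). Tsp42Ep was lowest in control replicate 6, at 0.268 TPM with 0.430 TPM next. Tsp86D was lowest in TFAM RNAi replicate 3, at 5.75 TPM with 6.13 TPM next. No gene that rose or fell was among these 9 groups.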

How the results depend on the processing

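The calls of Tsp42Ef, Tsp42Eg, Tsp42Eh, Tsp42Ei, Tsp42Ek and Tsp42El held in 26 of 26 alternatives, with log2 fold changes of -1.07 to -0.82, -1.94 to -1.74, -5.44 to -4.52, -3.00 to -2.33, 1.72 to 2.07 and -1.05 to -0.78, and a highest adjusted p of 0.026. Tsp42Ee lost its call in 8 alternatives and Tsp3A in 11, with the sign kept. The number of tetraspanin genes that rose was 3 with array weights and 1 to 2 with a library left out (for the cluster, 1 to 2). Outside the cluster, 2 rose with array weights; the number that fell was 0 under median-ratio scaling, quantile normalization and both fits without marker-rich libraries, 2 with array weights (Tsp2A and Tsp3A), and 0 to 2 with a library left out.

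Over all tested genes, the main fit called 572 higher and 1377 lower. Quantile normalization called 961 higher and 1075 lower, and array weights 2633 higher. The fit without the 2 libraries of each group richest in midgut markers called 379 higher and 728 lower. No alternative moved the median of all genes by over 0.081 on the log2 scale. Of the context genes, 0 rose without a filter, by the exact rank-sum test and without the midgut-rich libraries, 3 under median-ratio scaling and quantile normalization, 2 without the trend and without the marker-rich libraries, 11 with array weights, and 0 to 3 with a library left out; 1 fell without the midgut-rich libraries.

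Whether the 5 replicate numbers that both groups share pair the libraries is not settled: correlations of deviations ran between -0.0768 and 0.616, and 2 of 5 numbers (3 and 5) matched best with their own, so the libraries were treated as unpaired. With the replicate block on those 10 libraries, 3 tetraspanin genes rose (2 outside the cluster, Tsp33B and Tsp42A) and 1 outside it fell, Tsp2A (-0.91, SE 0.10, adjusted p = 0.0021), while 1342 of all genes and 2 context genes rose; the same 10 libraries without the block gave 884 and 2, and 0 that fell outside the cluster.

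Signs turned only for genes that were not called. Without the midgut-rich libraries the log2 fold change was 0.18 for Tsp42Ec, 0.022 for Tsp42Ed, 0.067 for Tsp42Er, 0.27 for Tsp66E and -0.096 for Tsp97E. Without the marker-rich libraries it was 0.27 for Tsp42Ec, 0.11 for Tsp42Ed, 0.012 for Tsp42Er and 0.14 for Tsp66E. Quantile normalization gave 0.055 for Tsp42Ed and -0.00924 for Tsp39D, and array weights gave -0.069 for Tsp42Eq. With a library left out, the range was -0.21 to 0.080 for Tsp42Ed, -0.071 to 0.17 for Tsp42Eq, -0.34 to 0.065 for Tsp42Er, -0.013 to 0.15 for Tsp39D and -0.00737 to 0.27 for Tsp97E. The cause was not tested. The fits without marker-rich libraries and that of the same 10 libraries were added after seeing the data. Depth is unknown, so no limit from counting is given.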
